A study of Drosophila melanogaster with 10 samples.

Results

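The genes described here are 10 members of the cytosolic and mitochondrial folding machinery of Drosophila melanogaster, measured in males with a Mef2 hairpin and in controls. They are the Hsp90 gene Hsp83 and its cochaperone Hop, the constitutive Hsp70 genes Hsc70-4 and Hsc70-5, the J proteins DnaJ-1 and Droj2, the exchange factors stv and Hsc70Cb, the chaperonin Hsp60A and the heat shock factor Hsf. They were taken by name from 17559 gene rows, and all 10 were found and tested. Hop was matched to the row of Stip1 and Hsc70Cb to that of Hsp110, of which they are synonyms in the reference. The reference also lists Hop as a synonym of hop, the JAK kinase gene, which was not used.

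Polyadenylated RNA was sequenced from whole adult males, 5 to 10 days after eclosion, with 5 flies in each sample. The 5 control samples had the genotype w[1118] / Y with the c564 driver over a wild-type chromosome. The 5 knockdown samples, also labelled w[1118] / Y and with the same driver, carried the hairpin transgene UAS-Mef2-IR[GD15549]. All 10 samples therefore share the w[1118] allele and the driver, and the controls carry no hairpin. Lower Mef2 and other effects of carrying the hairpin transgene therefore cannot be told apart in this design. The series' design text and the sample labels place the hairpin differently in the genotype, so where it is inserted is not known here. The driver c564 is used for the fat body, the storage and immune organ of the fly, and is also active elsewhere, whereas RNA came from every tissue. In such bulk samples fewer cells of a type and less RNA per cell cannot be told apart.

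Hsp90 is an ATP-driven clamp that completes the folding of kinases, steroid receptors and other clients, many of them handed over from Hsp70 by Hop. Hsp70 binds exposed hydrophobic stretches in a cycle that J proteins start by stimulating its ATPase and that exchange factors end by releasing ADP. Hsp60 encloses proteins imported into mitochondria. Heat shock factor, the protein made from Hsf, is held inactive by chaperones at rest and, when it trimerizes under stress, binds and activates many chaperone genes. This activation acts on existing protein and need not change the level of Hsf RNA.

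Total counts were 43823883 to 102851945 per library. Mef2, the targeted gene, had 93.6 ± 4.6 CPM (read counts scaled by library size with TMM factors; mean ± SD, n = 5) in control and 79.3 ± 5.1 in knockdown, a log2 fold change of -0.24 (edgeR adjusted p = 0.0149). In replicates 1 to 3 alone its log2 fold change was -0.34 (adjusted p = 0.000485). In replicates 4 and 5 alone it was -0.12 and was not called (adjusted p = 0.28). The libraries stand apart by replicate number. Deviations from the group mean correlated at 0.09 to 0.34 between control and knockdown libraries with other numbers among replicates 1 to 3 or among replicates 4 and 5, and at -0.31 to -0.096 across these sets. No label names such sets, so the values of the 10 genes are also given in the first set, replicates 1 to 3, and in the second, replicates 4 and 5. The white gene w, a marker carried by many fly transgenes, was also highest in knockdown replicates 4 and 5, with 546 and 472 CPM against 303 to 366 in knockdown replicates 1 to 3 and 49.0 to 62.1 in control. Of the marker lists, fat body had 2 of 7 tested members lower and none higher, with summed levels of 28901 to 39111 CPM in control and 20451 to 24857 in knockdown. Oenocyte had 3 of 5 lower, hemocyte 4 of 7 higher and accessory gland 1 of 5 lower, while muscle, testis, midgut, neuron and photoreceptor lists had no called member. Of all 13928 tested genes, 11.1% were called higher and 5.51% lower. The fat body and oenocyte sums share the abundant gene Cyp4g1, and no marker was at 0 in all libraries. The part of these shifts in the results below was not tested.

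Transcripts of 9 of the 10 genes rose in knockdown and none fell, against a background of 11.1% of 13928 tested genes called higher (edgeR quasi-likelihood test, Benjamini-Hochberg adjusted p under 0.05). Hsf was the exception. The 10 genes and the lists below were chosen with earlier results of these data known. Their counts are set beside the shares of all tested genes as a description, not as a test. The rises ran from 1.31-fold for the mitochondrial Hsp70 Hsc70-5 to 2.16-fold for the J protein DnaJ-1, as ratios of mean CPM. The median log2 fold change was 0.57 over the 10 genes and -0.004 over all tested genes. In the same 9 genes every knockdown library lay above every control library, which was so for 11.8% of tested genes, while 18.6% had groups apart in either direction. Adjusted p-values of single genes below are from the same edgeR test over all tested genes.

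**Figure D1:**
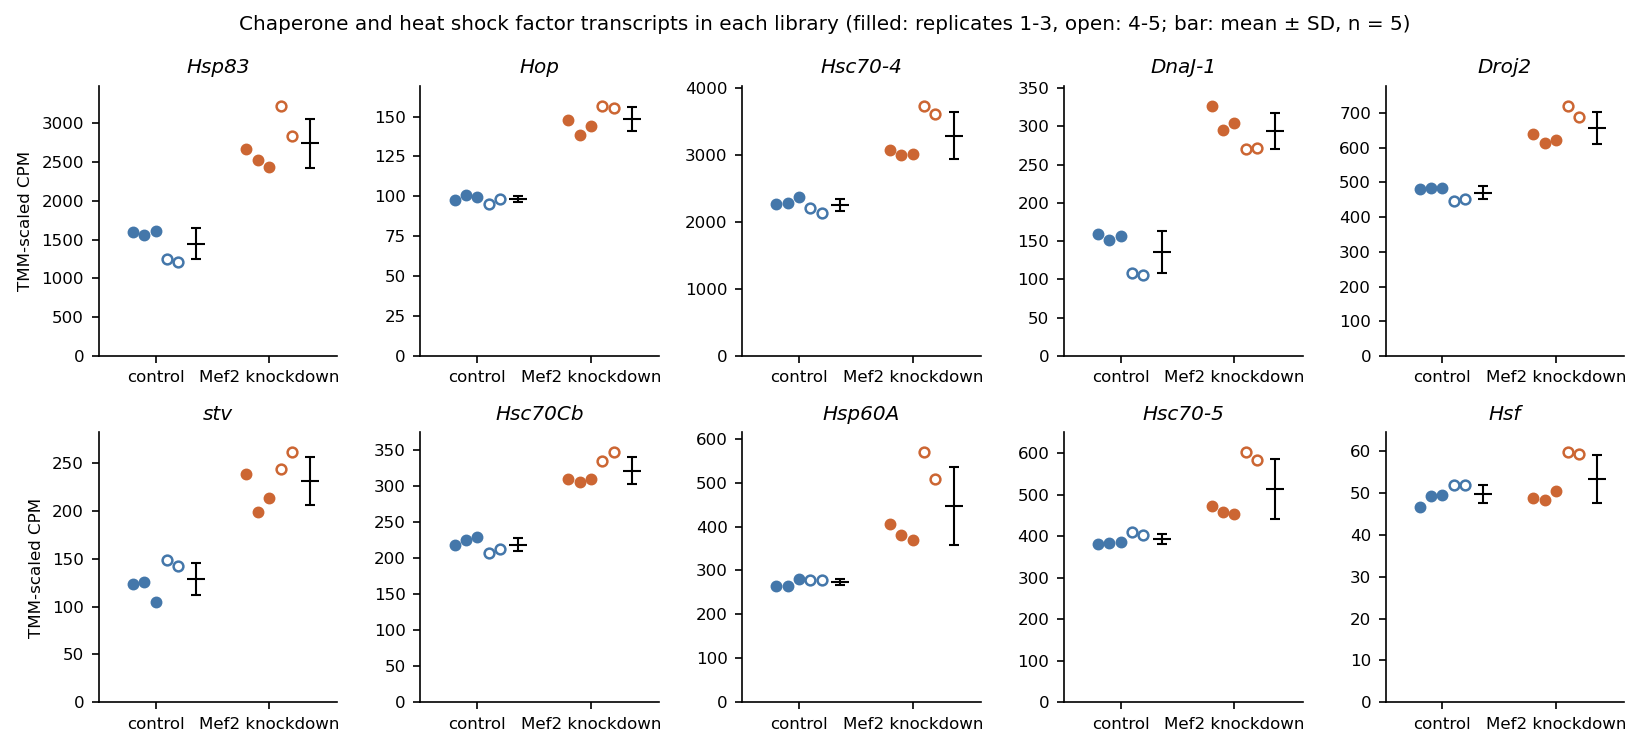
TMM-scaled CPM (y axis, from 0) of the 10 genes in each of 5 control and 5 knockdown libraries, with filled points for replicates 1 to 3, open points for replicates 4 and 5, and bars for mean ± SD. The groups do not overlap in 9 panels; in the panel of Hsf knockdown replicates 1 to 3 sit at 48.2 to 50.4 CPM, within the range of the controls.

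Hsp83 (FBgn0001233, chromosome 3L, 3192969 to 3197059, plus strand, BDGP6) encodes the cytosolic Hsp90, which is abundant without stress and heat-inducible. Its level was 1594, 1564, 1615, 1249.8 and 1216 CPM in control replicates 1 to 5 and 2665, 2531, 2433, 3221 and 2837 CPM in knockdown replicates 1 to 5. The groups did not overlap, and the sets were ordered in opposite ways: control replicates 4 and 5 were the lowest controls, and knockdown replicates 4 and 5 the highest of all libraries. The mean rose from 1448 ± 197 to 2738 ± 310 CPM, or 0.92 on the log2 scale (SE 0.11; adjusted p = 0.00029). Within replicates 1 to 3 the log2 change was 0.68 (SE 0.05) and within replicates 4 and 5 it was 1.27 (SE 0.12). This difference passed the test of the interaction between group and set (adjusted p = 0.00588). The sets were seen in these same counts, so interaction p-values here and below can be too small. The annotated exons of Hsp83 share 15 bases, 0.507% of their length, with CG14966 on the opposite strand.

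Hop (FBgn0024352, chromosome 2L, 295122 to 297449, plus strand) encodes the adaptor that binds Hsp70 and Hsp90 at the same time. It was the most even of the 10 genes in control, at 97.7, 100.6, 99.4, 95.3 and 98.4 CPM, and had 147.5, 138.4, 143.9, 156.6 and 155.1 CPM in knockdown. All knockdown libraries were well above all controls. The log2 fold change of 0.59 (SE 0.05, adjusted p = 1.55e-05) had the smallest adjusted p of the 10 genes. The first set changed by 0.53 and the second by 0.66, and the interaction was not called (adjusted p = 0.104).

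Hsc70-4 (FBgn0266599, chromosome 3R, 15242687 to 15246614, plus strand) encodes the major constitutive cytosolic Hsp70, which folds new chains and uncoats clathrin vesicles. It had 2269.6, 2277, 2371, 2207 and 2139 CPM in control and 3075, 3006, 3018, 3731 and 3611 CPM in knockdown. Knockdown replicates 4 and 5 stood above knockdown replicates 1 to 3, and these stood above all controls. Knockdown over control, the log2 fold change was 0.55 (SE 0.08, adjusted p = 0.00125), with 0.40 in the first set and 0.73 in the second (interaction adjusted p = 0.0189).

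The J proteins choose substrates for Hsp70 and trigger its ATP hydrolysis. DnaJ-1 (FBgn0263106, chromosome 3L, 5750029 to 5752189, minus strand), a heat-inducible Hsp40, had 158.9, 151.2, 156.7, 108.1 and 105.3 CPM in control and 326.8, 295.0, 304.9, 270.3 and 271.7 CPM in knockdown. In both groups its replicates 4 and 5 were below replicates 1 to 3, unlike any other of the 10 genes, and the groups did not overlap. Its log2 fold change of 1.11 (SE 0.13, adjusted p = 0.000195) was the largest of the 10. The first set changed by 0.99 and the second, with lower controls, by 1.32 (interaction adjusted p = 0.0136).

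Droj2 (FBgn0038145, chromosome 3R, 13382106 to 13385283, plus strand), the other J protein, is expressed constitutively. It had 482.5, 483.7, 485.2, 447.3 and 451.1 CPM in control and 638.7, 614.2, 622.6, 720.5 and 689.5 CPM in knockdown. Every knockdown library was above every control, with the widest gap in replicates 4 and 5. The log2 fold change was 0.48 (SE 0.06, adjusted p = 0.000506), with 0.37 and 0.62 in the first and second set (interaction adjusted p = 0.0224).

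Exchange factors free Hsp70 from ADP so that it can let go of its substrate. The gene stv (FBgn0086708, chromosome 3L, 13477541 to 13483515, plus strand) encodes starvin, the fly BAG3, which works with Hsp70 in the removal of damaged muscle proteins. It had 123.0, 125.4, 105.2, 148.2 and 142.1 CPM in control and 238.7, 198.8, 213.5, 243.4 and 260.6 CPM in knockdown. The groups did not overlap, and replicates 4 and 5 were the highest of their group in both. Knockdown over control, the log2 fold change was 0.84 (SE 0.10, adjusted p = 0.00029). The first set changed by 0.88 and the second by 0.77, the only change of the 10 genes that was not larger in replicates 4 and 5, and the interaction was not called (adjusted p = 0.673).

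Hsc70Cb (FBgn0026418, chromosome 3L, 14037019 to 14043686, plus strand) encodes the fly Hsp110, which pairs with Hsp70 and a J protein to dissolve aggregates. Its levels were 217.6, 225.5, 229.9, 207.7 and 212.6 CPM in control and 310.3, 305.2, 309.1, 335.0 and 346.5 CPM in knockdown. Both groups were tight and far apart. The log2 fold change was 0.55 (SE 0.06, adjusted p = 9.01e-05), with 0.46 and 0.67 in the first and second set (interaction adjusted p = 0.0326).

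Of the mitochondrial genes, Hsp60A (FBgn0015245, chromosome X, 11108482 to 11112308, plus strand) encodes the chaperonin of the matrix. It had 265.2, 265.7, 279.6, 279.5 and 278.2 CPM in control and 406.1, 380.9, 368.7, 568.3 and 509.0 CPM in knockdown. The controls differed little, and the knockdown libraries split by set. Knockdown over control, the log2 fold change was 0.71 (SE 0.11, adjusted p = 0.00188), with 0.51 in the first set and 0.92 in the second (interaction adjusted p = 0.012).

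Hsc70-5 (FBgn0001220, chromosome 2R, 14252598 to 14256192, minus strand) encodes the mitochondrial Hsp70, which pulls proteins through the inner membrane and helps to fold them. It had 382.5, 384.7, 386.6, 409.5 and 402.6 CPM in control and 473.4, 457.5, 453.7, 601.9 and 583.3 CPM in knockdown. The groups did not overlap, and the knockdown libraries again split by set. Its log2 fold change of 0.39 (SE 0.09, adjusted p = 0.0136) was the smallest of the 9 that were called, with 0.26 and 0.52 in the first and second set (interaction adjusted p = 0.0203).

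Hsf (FBgn0001222, chromosome 2R, 18130303 to 18134634, minus strand) encodes the only heat shock factor of the fly known to activate chaperone genes. Its levels were 46.6, 49.3, 49.4, 51.7 and 51.9 CPM in control and 48.8, 48.2, 50.4, 59.6 and 59.2 CPM in knockdown. The groups overlapped, because knockdown replicates 1 to 3 lay within the control range and only knockdown replicates 4 and 5 lay above it. The log2 fold change was 0.10 (SE 0.07, 95% interval -0.06 to 0.25, adjusted p = 0.343). The first set gave 0.02 and the second 0.17 (adjusted p = 0.731 and 0.124), and the interaction was not called (adjusted p = 0.0756). The upper bound of the interval lay below the estimated rise of each of the other 9 genes, but the 95% interval of Hsc70-5, 0.19 to 0.58, overlapped that of Hsf.

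All 9 called genes were also called in replicates 1 to 3 alone and in replicates 4 and 5 alone, where 15.4% and 13.2% of tested genes were called higher. The sets were seen in these same counts, so the interaction test can call too many genes. It called a different size of change in 7 of the 10 genes, against 18.8% of all tested genes. The 7 were Hsp83, DnaJ-1, Hsp60A, Hsc70-4, Hsc70-5, Droj2 and Hsc70Cb. In each of the 7 the change was larger in replicates 4 and 5. Knockdown replicate 4 held the highest level of 7 genes, knockdown replicate 5 that of stv and Hsc70Cb, and knockdown replicate 1 that of DnaJ-1. The log2 change of Mef2 itself was -0.34 in replicates 1 to 3 and -0.12 in replicates 4 and 5, a smaller fall. What distinguishes the sets was not recorded in the labels. The part of the smaller fall of Mef2 and of the higher w in knockdown replicates 4 and 5 was not tested.

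**Figure D2:**
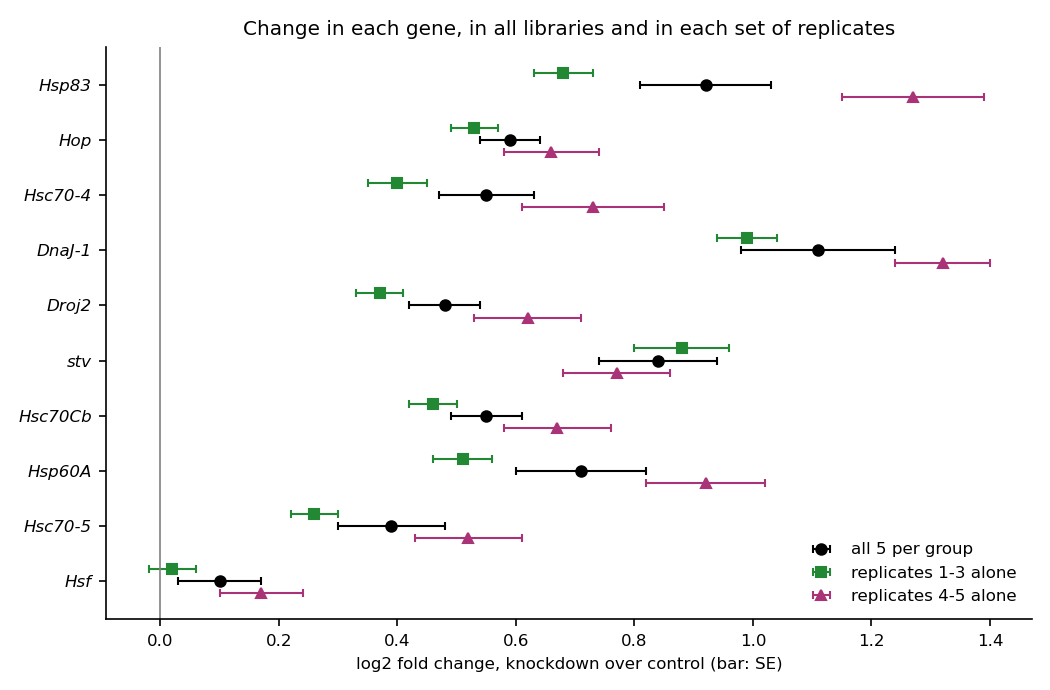
Log2 fold change of each gene, knockdown over control (x axis, bars for SE), in all 10 libraries (circles), in replicates 1 to 3 alone (squares) and in replicates 4 and 5 alone (triangles). The triangle is to the right of the square for every gene except stv, and only the markers of Hsf lie close to 0.

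Levels of different genes are compared per kilobase of annotated exon, from the union of exons in the annotation. In control, Hsc70-4 stood highest at 829.4 ± 31.8 CPM per kb, a level above that of 99.5% of 13699 tested genes with an annotated length. Hsp83 followed at 489 ± 67, Droj2 at 198.0 ± 8.0, Hsc70-5 at 134.6 ± 4.1 and Hsp60A at 110.3 ± 3.0 CPM per kb. DnaJ-1 at 62.9 ± 12.5 and Hsc70Cb at 58.3 ± 2.4 CPM per kb came next and could not be ordered, since their ranges overlapped and DnaJ-1 was the higher in 3 of 5 libraries. Hop at 48.6 ± 1.0, stv at 35.1 ± 4.6 and Hsf at 17.1 ± 0.7 CPM per kb were lowest, and all neighbours other than DnaJ-1 and Hsc70Cb had ranges that did not overlap. In knockdown, DnaJ-1 at 135.9 ± 11 CPM per kb lay above Hsc70Cb at 85.6 ± 4.9 in every library. Hsp60A at 180.1 ± 35.3 and Hsc70-5 at 175.9 ± 24.8 CPM per kb overlapped in knockdown, with Hsp60A the higher in 3 of 5 libraries. The ranges of Hop and stv also overlapped in knockdown, though Hop was the higher in every library. Together the 10 genes held 5469 CPM in control and 8691 CPM in knockdown on average, of which Hsp83 and Hsc70-4 made up 67.6% and 69.3%.

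Because the genes rose by unequal amounts, ratios between partners shifted within libraries. Of 8 ratios of CPM per kb compared, 6 differed between the groups with no overlap. Each of the 6 had a two-sided exact permutation p of 0.00794, the smallest that 5 against 5 libraries can give (adjusted p = 0.0106 over the 8). The pairs were chosen with earlier results of these data known and recombine the levels given above. These p-values are therefore no separate support for the changes of single genes. Hsp83 per Hsc70-4 was 0.625 to 0.644 in control replicates 1 to 3, 0.520 and 0.521 in control replicates 4 and 5, and 0.721 to 0.795 in knockdown. Hop per Hsp83 went the other way, from 0.0897 to 0.118 in control to 0.0711 to 0.0866 in knockdown. DnaJ-1 gained on both Hsc70-4, from 0.0756 ± 0.0128 to 0.114 ± 0.020, and Droj2, from 0.316 ± 0.051 to 0.494 ± 0.067 (means ± SD, n = 5).

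For the mitochondrial chaperones, Hsp60A per Hsc70-5 went from 0.820 ± 0.019 to 1.02 ± 0.06. The cytosolic Hsp83 per Hsf went from 28.7 ± 5.0 to 50.6 ± 3.1. These shifts had the same sign in both sets, with log2 differences of 0.25 and 0.40 for Hsp60A per Hsc70-5 and -0.15 and -0.61 for Hop per Hsp83, replicates 1 to 3 first. The ratio stv per Hsc70-4 did not pass after adjustment (adjusted p = 0.0544), with a log2 difference of 0.49 in replicates 1 to 3 and 0.04 in replicates 4 and 5. Hsc70Cb per Hsc70-4 lay at 0.0682 to 0.0720 in control and 0.0650 to 0.0742 in knockdown, and no difference was detectable (exact permutation p = 0.738). The exact tests treat all 10 libraries as exchangeable and take no account of the sets.

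**Figure D3:**
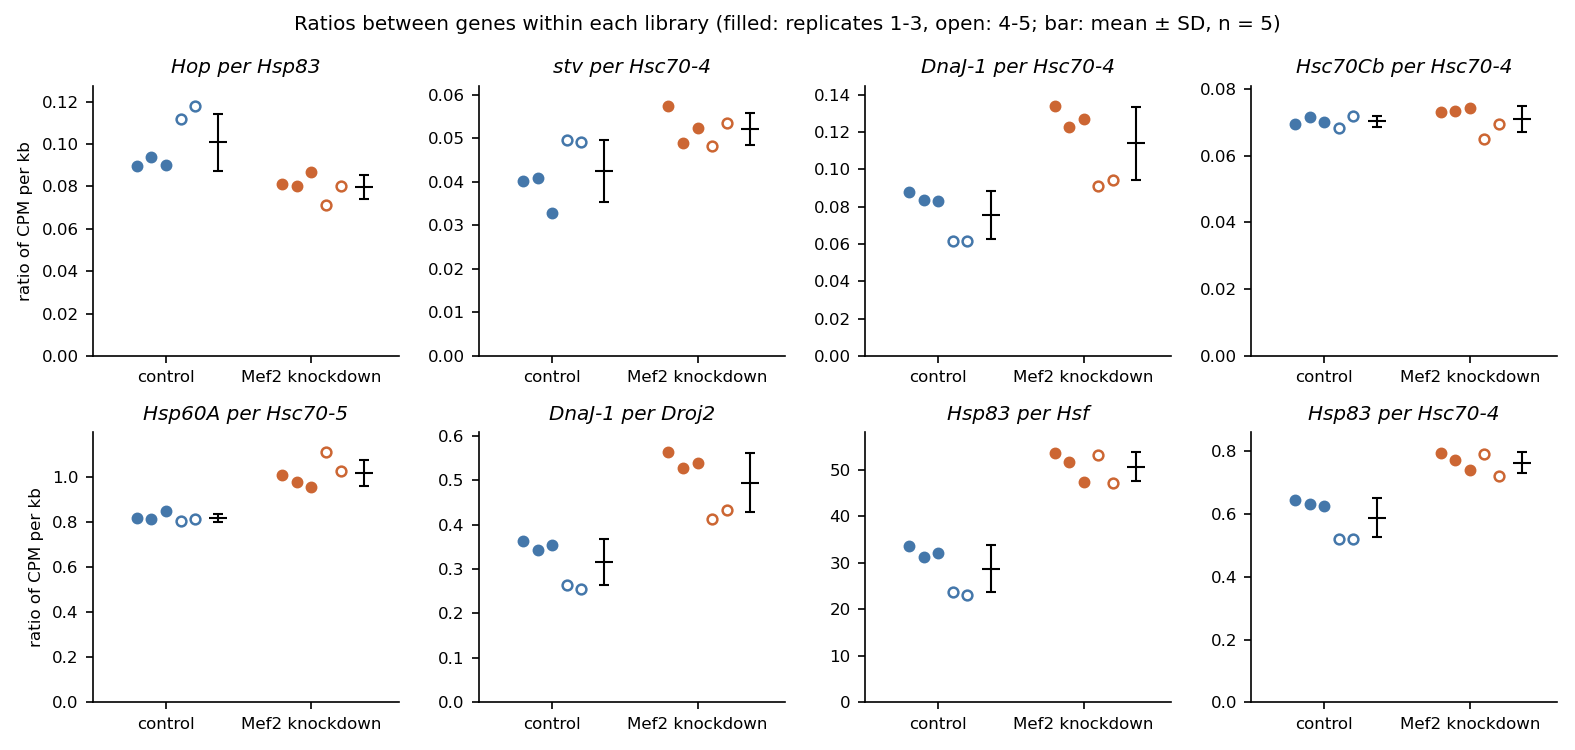
Ratios of CPM per kb between 8 pairs of genes (y axis, from 0) in each library, with filled points for replicates 1 to 3, open points for replicates 4 and 5 and bars for mean ± SD. Control and knockdown points are separate in 6 panels and overlap for stv per Hsc70-4 and for Hsc70Cb per Hsc70-4.

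Beyond the 10 genes, most listed partners of Hsp90 were not called, and the listed Unc-45 could not be tested because its identifier has no row. Of 17 genes on a list of Hsp90 and its cochaperones, all tested, 4 were higher and 1 lower, with a median log2 fold change of 0.04, against 11.1% and 5.51% of all tested genes (1549 and 768 genes; with upper-quartile scaling 1301 and 1145). Besides Hsp83 and Hop, the higher genes were CG1416, which the reference also names Aha1 after the activator of the Hsp90 ATPase, and Cdc37, which brings kinases to Hsp90. CG1416 (chromosome 2L, 21758010 to 21761000) rose from 78.2 ± 2.5 to 136.7 ± 14.1 CPM, by 0.81 on the log2 scale (SE 0.07; adjusted p = 2.61e-05). Cdc37 (chromosome 3L, 1795392 to 1797307) rose from 68.8 ± 2.4 to 83.7 ± 5.7 CPM, by 0.28 on the log2 scale (SE 0.05; adjusted p = 0.00496), and 23.0% of its exon length is overlapped by an antisense gene. The lower gene was Sgt, a cochaperone with tetratricopeptide repeats, which fell from 106.5 ± 3.5 to 91.2 ± 2.2 CPM, a log2 change of -0.22 (SE 0.04; adjusted p = 0.00484). With the replicate number as a block, 2 genes of this list were lower, and 4 with upper-quartile scaling. In the first and second set the log2 changes were 0.67 and 0.97 for CG1416, 0.24 and 0.31 for Cdc37, and -0.19 and -0.30 for Sgt. Sgt1, a cochaperone of Hsp90 in kinetochore assembly, missed the threshold at a log2 of 0.13 (SE 0.04, adjusted p = 0.0587), and was called with DESeq2, with voom quality weights and with set as a covariate (adjusted p = 0.0242 to 0.0308).

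On the list of constitutive Hsp70s, J proteins and exchange factors, 32 of 33 genes were tested, and 10 were higher and 2 lower, with a median log2 fold change of 0.11, where the whole table had 11.1% higher and 5.51% lower. Of the 26 tested genes outside the 10 described above, 4 were higher and 2 lower, close to those shares. The largest rise was in CG7130 (chromosome 3L, 22075056 to 22075756), a listed gene whose role the reference does not give. It had 5.42 to 6.69 CPM in control and 21.4, 20.2, 22.1, 40.5 and 24.9 CPM in knockdown (log2 2.11, SE 0.18, adjusted p = 2.69e-05). The groups were far apart, and knockdown replicate 4 stood above the other knockdown libraries. In the first and second set CG7130 rose by 1.83 and 2.41 on the log2 scale, and CG10973 by 0.77 and 1.14. CG10973 (chromosome 3L, 12753239 to 12754774) rose from 19.6 ± 0.4 to 37.6 ± 6.1 CPM, by 0.94 on the log2 scale (SE 0.10; adjusted p = 0.0001), and 10.3% of its exon length is shared with CG10984 on the opposite strand.

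The other higher genes of that list belong to the endoplasmic reticulum. Sil1 (chromosome 3R, 25233636 to 25235529), an exchange factor for its lumenal Hsp70, had 15.3 to 16.5 CPM in control and 27.8, 33.6, 36.7, 97.9 and 57.4 CPM in knockdown (log2 1.67, SE 0.29, adjusted p = 0.00334). On the log2 scale it rose by 1.07 in the first set and by 2.21 in the second (interaction adjusted p = 0.0165). The lumenal Hsp70 itself, Hsc70-3, had 863 to 1020.5 CPM in control and 1069 to 1939 in knockdown, a log2 change of 0.64 (adjusted p = 0.0146), with 0.44 in the first set and 0.84 in the second. The lower genes, named after their values were seen, were Hsc70-2 (log2 -0.22, adjusted p = 0.0455) and CG12020 (log2 -0.23, adjusted p = 0.0403). The call of Hsc70-2 was lost with the replicate number as a block (adjusted p = 0.0672), in replicates 1 to 3 alone (adjusted p = 0.134), and without control replicate 1, 3, 4 or 5 or knockdown replicate 4 (adjusted p = 0.0609 to 0.0965). That of CG12020 was lost in replicates 1 to 3 alone (adjusted p = 0.148) and without control replicate 3, 4 or 5 or knockdown replicate 4 or 5 (adjusted p = 0.0532 to 0.0835).

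Among 16 mitochondrial chaperones and proteases, all tested, 3 were higher and none lower, with a median log2 fold change of 0.02, beside 11.1% and 5.51% of all tested genes. Hsp60A and Hsc70-5 made up all but 1 of the higher genes, so that 1 of 14 was higher outside the 10 genes. CG11267, listed in the reference also as Hsp10, the lid of the Hsp60 barrel, rose with Hsp60A from 41.8 ± 1.4 to 67.2 ± 16.7 CPM, by 0.68 on the log2 scale (SE 0.13; adjusted p = 0.00579), and by 0.48 in the first set and 0.90 in the second. The mitochondrial Hsp90 gene Trap1 had a log2 change of 0.04, and the matrix exchange factor Roe1 of 0.04. The protease genes Lon, ClpX, ClpP, Spg7 and YME1L had log2 changes of 0.10, -0.04, 0.01, 0.19 and -0.01, none of them called, although Spg7 was called in replicates 4 and 5 alone (log2 0.30, adjusted p = 0.038) and with set as a covariate (log2 0.18, adjusted p = 0.0167). Trap1, Roe1 and the protease genes were named after their values were seen.

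The paralogs of Hsp60A had values below 0. Hsp60C had a log2 change of -0.21 (adjusted p = 0.0614), Hsp60B of -0.18 (adjusted p = 0.0919) and Hsp60D of -0.15 (adjusted p = 0.084). In replicates 1 to 3 alone none of the 3 was called (log2 -0.09, -0.06 and -0.06), in replicates 4 and 5 alone all 3 were called lower (log2 -0.41, -0.39 and -0.30), and Hsp60C was also called without knockdown replicate 3 (adjusted p = 0.0437). With upper-quartile scaling Hsp60C and Hsp60D were called (adjusted p = 0.0436 and 0.0487), with set as a covariate all 3 (0.0224 to 0.0495), and with DESeq2 Hsp60C (0.021). Hsp60B is required in the male germ line. Summed testis markers were 630.0 to 687 CPM in control and 476 to 639 CPM in knockdown, with 0 of 8 called, beside 16.6% of all tested genes. Their part in the values of the paralogs was not tested.

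**Figure D4:**
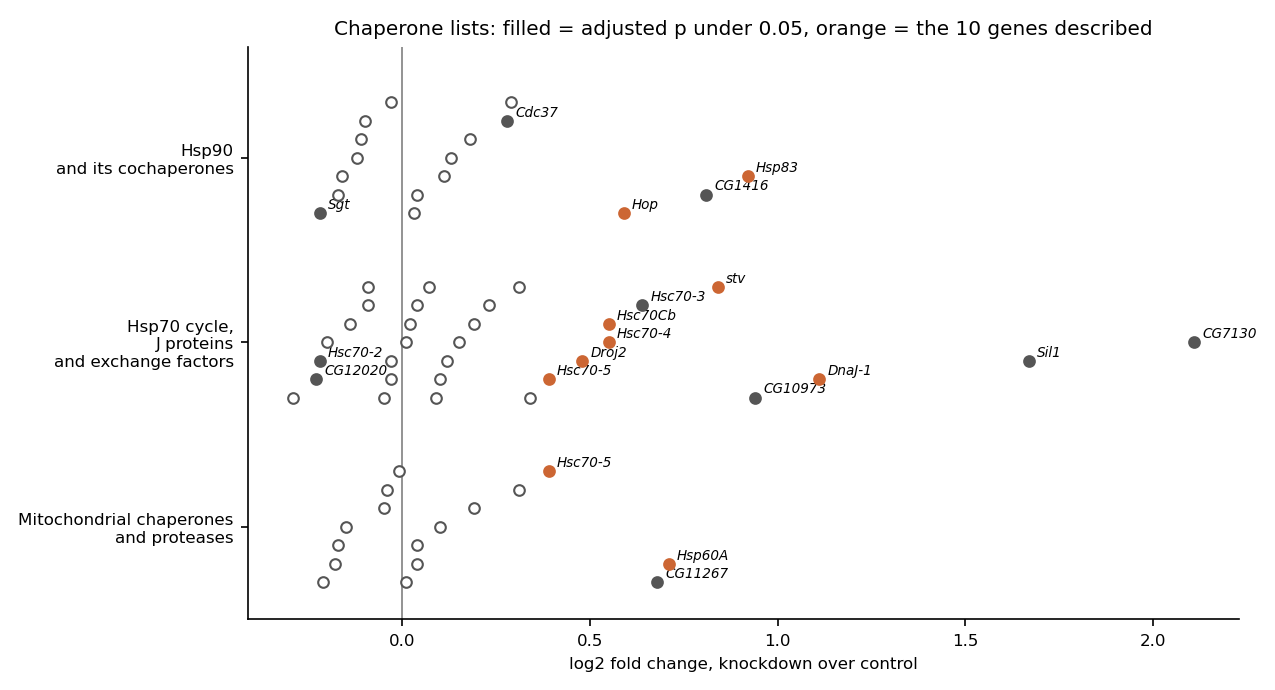
Log2 fold change, knockdown over control (x axis), of every tested gene on the lists of Hsp90 and its cochaperones, of the Hsp70 cycle and of mitochondrial chaperones and proteases (rows; vertical spread within a row only separates points). Filled points passed the threshold and are named, orange points are among the 10 genes described, and the open points cluster around 0.

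On a list of heat-inducible genes, the textbook targets of heat shock factor, 17 of 18 genes were tested, and 14 were higher and none lower, beside 11.1% and 5.51% of all tested genes. The median log2 fold change was 2.28. Hsp83, stv and DnaJ-1 are 3 of the 14, and 11 of the 14 tested genes outside them were higher. The rises of the 3 (log2 0.92, 0.84 and 1.11) lay below those of Hsp68 (3.74), Hsp23 (2.28), Hsp70Ab (4.40), Hsp70Bb (5.10) and Hsp27 (1.23), and above that of lncRNA:Hsromega (0.64). The fold changes of Hsp70Ab and Hsp70Bb start from very low control means, 0.541 and 0.826 CPM, against 11.5 and 28.4 CPM in knockdown. Hsp67Ba, Hsp67Bc and CG4456 were not called (log2 0.06, 0.16 and -0.18). CG4456, listed as Hsp67Bb, shares 90.1% of its exon length with Hsp22 on the same strand. Hsp67Ba shares 75.9% of its exon length with an antisense gene. It had 0.594 to 1.02 CPM in control and 0.638 to 1.11 CPM in knockdown. The counts of Hsp67Ba and CG4456 are therefore uncertain.

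The sets did not order this list in 1 way. Hsp23 rose by 2.02 in the first set and 2.61 in the second (interaction adjusted p = 0.0263), and Hsp70Ba by 4.87 and 2.54 (interaction adjusted p = 0.00471). The control levels of Hsp70Ba were very low, at 0.325, 0.428, 0.318, 1.18 and 0.683 CPM in replicates 1 to 5. The Hsp70 copies are near-identical, so the split of reads between them is uncertain. Hsp22 was at 0 in all libraries, and its annotated exons lie wholly within those of CG4456. Hsp27, lncRNA:Hsromega, Hsp67Ba, Hsp67Bc, CG4456, Hsp70Ba and Hsp22 were named after their values were seen.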

How the data were processed

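RNA sequencing libraries of whole males, 5 control and 5 knockdown, were analysed. The authors deposited raw counts per gene, whole numbers for 17559 identifiers. The pipeline, per the submitters' processing notes, involved bcl2fastq, STAR 2.4.0j, featureCounts, limma and the build BDGP6. Not given in the sources used here were the annotation release, the strand setting and the handling of multiply mapped reads.

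Identifiers were paired with symbols, coordinates and exon lengths through Ensembl annotation release 115 of BDGP6 (17253 of 17559). Genes were tested with edgeR 4.0.16 in R 4.3.3 (TMM, filterByExpr at a minimum count of 10, quasi-likelihood fit on group over all 10 libraries, Benjamini-Hochberg adjustment over 13928 genes, called at an adjusted p under 0.05). An SE was obtained by dividing the absolute log2 change by the root of the F statistic. The 95% interval uses the t distribution with the degrees of freedom of the fit. Ratios were tested with exact permutation in SciPy 1.17.1. The procedure was tested on simulated data.

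Samples numbered alike in the labels correlated in their deviations from the group means at 0.16 to 0.28, above 0.1 in all 5 pairs. Libraries with other numbers within a set correlated at 0.09 to 0.34, so like-numbered libraries were no more alike than others of their set. No label gives the number a meaning, and a fit with the replicate number as a block was an alternative. Others were RLE and upper-quartile scaling, no filter beyond 1 count, DESeq2 1.42.0, limma 3.58.1 voom with and without quality weights, the set as a covariate (replicates 1 to 3 or 4 and 5, seen in the data and named by no label), each set alone, and leaving out each library. Within groups, chi-square per degree of freedom between libraries was 6.86 or more, so none was a copy of another. It was 66.9 between knockdown replicates 4 and 5, against 7.81 between control replicates 4 and 5. Among knockdown replicates 1 to 3 it was 11.1 to 15.2. Knockdown replicates 4 and 5 are therefore not a set of closely alike libraries. The series design text calls the samples biological replicates.

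The genes, the lists and the pairs in ratios were chosen with earlier results of these data known. The genes named are the 10, Mef2, w, and the 4 other genes with the smallest adjusted p of each list. Any other gene with values is said to be named after its values were seen. The lists are counted without Unc-45, which had no row, and without the listed names HspBP1 and Tim44, which were not matched. Hsp68, Hsp23, Hsp70Ab and Hsp70Bb stand under that rule for the heat-inducible list. Promoter and protein sequences were not analysed here.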

Additional observations from a re-analysis of the deposited data

Results flagged for a closer look

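The change in knockdown differed between replicates 4 and 5 and replicates 1 to 3 in 18 of 43 named genes tested, by the edgeR test of the interaction, which called 18.8% of all tested genes. Of the 43, 15 were named after their values were seen, and the sets themselves were seen in these same counts. Among the 10 genes described, replicates 4 and 5 exceeded replicates 1 to 3 by a log2 of 0.62 for Hsp83, 0.44 for Hsp60A, 0.36 for DnaJ-1 and for Hsc70-4, 0.28 for Hsc70-5 and for Droj2, and 0.24 for Hsc70Cb. Among the other named genes the difference was 1.16 for Sil1, 0.62 for Hsp23, 0.39 for CG10973, 0.33 for CG1416 and 0.23 for Spg7. It was -2.31 for Hsp70Ba, -0.32 for Hsc70-2, -0.30 for Hsp60B and -0.30 for Hsp60C. For Mef2 it was 0.24, a smaller fall in replicates 4 and 5, and for w it was 0.51.

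A single library lay far from the others of its group in 7 of 102 groups of 5 libraries, where chance alone gives about 1 in 20. Knockdown replicate 4 had 93.6 CPM of Cdc37 (median 82.1), 79.5 CPM of Roe1 (median 69.8) and 40.5 CPM of CG7130 (median 22.1). Control replicate 4 had 1020.5 CPM of Hsc70-3 (median 873) and 1.40 CPM of Hsp70Bb (median 0.748). Control replicate 5 had 4.58 CPM of CG4456 (median 4.95). Control replicate 3 had a ratio Hsp60A per Hsc70-5 of 0.852 (median 0.814).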

How the results depend on the processing

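Of the 10 genes, 9 were called higher and none lower in all 20 alternatives, and the heat-inducible list kept counts of 14 and 0. Hsf was called in 0 of 20 (log2 0.00 to 0.17, adjusted p 0.124 to 0.952). The weakest adjusted p of a called gene was 0.046, for Hsc70-5 without control replicate 3. Mef2 was not called in replicates 4 and 5 alone (log2 -0.12, adjusted p = 0.28). The cause of the following shifts was not tested.

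Over all genes, 1549 were higher and 768 lower. With set as a covariate these were 2687 and 2084. The lower count was 1300 with DESeq2, 1547 with voom quality weights, 1386 in replicates 1 to 3 alone and 2011 in replicates 4 and 5 alone. The share of calls that were higher, 66.9%, became 53.2% with upper-quartile scaling and 47.7% in replicates 4 and 5 alone (1832 higher). With the replicate number as a block, 1819 were higher and 1019 lower, and Hsc70-2 was the only named gene whose call changed. In the Hsp90 list the lower count of 1 became 4 with upper-quartile scaling, 3 with DESeq2, 3 with quality weights, 2 with the replicate block, 4 with set as a covariate, 3 in replicates 1 to 3 and 2 in replicates 4 and 5. In the Hsp70 list the lower count of 2 became 4 with DESeq2, 1 with the block, 5 with set as a covariate, 1 in replicates 1 to 3 and 4 in replicates 4 and 5. In the mitochondrial list the higher count of 3 became 5 with set as a covariate and in replicates 4 and 5. Its lower count of 0 became 2 with upper-quartile scaling, 1 with DESeq2, 3 with set as a covariate and 4 in replicates 4 and 5.

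Leaving out each library gave 853 to 1612 genes higher and 414 to 941 lower, with 952, 1001 and 853 higher without control replicate 1, 2 or 3. The lower count was 473, 444, 414 and 454 without control replicate 1, 3, 4 or 5. The lists then had 4 to 4 higher and 1 to 2 lower (Hsp90), 10 to 11 and 0 to 3 (Hsp70), and 3 to 3 and 0 to 1 (mitochondrial). The ratios in each set and without each library were computed as alternatives chosen after seeing the data. In replicates 1 to 3 and in 4 and 5 Hop per Hsp83 moved to -0.15 and -0.61. In replicates 4 and 5 stv per Hsc70-4 moved to 0.04, Hsc70Cb per Hsc70-4 to -0.06, Hsp60A per Hsc70-5 to 0.40, Hsp83 per Hsf to 1.10 and Hsp83 per Hsc70-4 to 0.54. Uncalled genes near 0 changed sign, all with adjusted p of 0.331 or more. Roe1 was -0.01 with upper-quartile scaling and -0.02 to 0.04 with each library left out, below 0 without knockdown replicate 4. ClpP was -0.03 with upper-quartile scaling, -0.01 with no filter, -0.11 in replicates 4 and 5, and -0.02 to 0.02 with each library left out, below 0 without control replicate 1, 2 or 3 or knockdown replicate 1, 2 or 4. YME1L was 0.02 with quality weights and 0.03 in replicates 1 to 3. Hsp67Ba was -0.00 in replicates 1 to 3 and -0.05 to 0.14 with each library left out, below 0 without control replicate 5 or knockdown replicate 1 or 2. Hsp67Bc was -0.08 in replicates 4 and 5. The search of promoters for heat shock elements was not run, and no promoter was analysed here.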
